A study of Sus scrofa with 4 samples.

Results

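The genes described here are the Ensembl gene models of the pig that the deposited expression table lists by identifier alone, with neither a gene name nor a description. They were taken by annotation and not by any measured value: the identifier begins with the pig Ensembl prefix, the name is missing and the description is empty. The rule gave 4545 of the 25880 Ensembl genes in the table, which has 35248 rows in all, and they are called unnamed genes below. A further 21335 Ensembl genes with a name or a description are used for comparison. The table also has 9368 rows that carry the prefix XLOC in place of an Ensembl identifier.

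The measurements come from 4 RNA-seq libraries of porcine parthenogenetic embryos at the 4-cell stage, made with Smart-seq2, a method that amplifies full-length cDNA from small amounts of RNA. A parthenogenetic embryo develops from an oocyte that was activated without sperm. The embryos of all 4 libraries came from electro-activated oocytes held in cytochalasin B, which keeps the second polar body in the egg, and then cultured in PZM-3 medium for 48 h. In 2 libraries the embryos were exposed to 50 µM Bobcat339, a cytosine-based inhibitor of the TET enzymes, and in the 2 control libraries to DMSO, whose dose the labels also give as 50 µM. The labels do not say how many embryos a library holds or whether the libraries of a group came from separate cultures, so each p-value measures the spread between these libraries, which may be technical.

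An Ensembl gene model is drawn from aligned proteins, cDNA and RNA-seq evidence. Such a model receives a symbol and a description when it can be linked to a curated gene or to an ortholog in another species. Models that stay unlinked include non-coding transcripts, retrocopies and pseudogenes of other genes, members of large families such as olfactory receptors, transfer RNAs, and fragments of genes whose remaining exons lie in a neighbouring model. A GO term, which assigns a molecular function, process or location, can still be attached through a recognised protein domain, so a gene can have a function in the table and no name. At the 4-cell stage the pig embryo passes from RNA stored in the oocyte to RNA made from its own genome.

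The libraries held 13568525 to 14681221 counts, and 3 counts in a library equal a CPM, a count scaled to a common library total, of 0.204 to 0.221. The 6 oocyte and early embryo markers summed to between 10177 and 11815 CPM per library. Of 5 cumulus and granulosa markers found in the table, AMH had no count and FSHR was detected in control 2 alone, while the list summed to 102 to 130 CPM, nearly all from VCAN and VIM. Blood and immune markers summed to 5.44 to 9.54 CPM. In RNA of whole embryos, fewer cells of a type and less RNA per cell cannot be told apart. The part of these other cells in the results below was not tested. The 2 control libraries differed from each other more than the 2 Bobcat339 libraries did, with a chi-square of the counts, per unnamed gene with at least 20 counts, of 19.7 against 7.01.

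The unnamed genes were short and weakly expressed. Their median deposited length was 591 bases, with quartiles at 282 and 1110, against a median of 3783 bases and quartiles of 1010.5 and 8964 for the other Ensembl genes. At least 1 count in the 4 libraries together was found for 2664 unnamed genes, or 58.6%, against 84.6% of the others. At least 10 counts were found for 1188, or 26.1%, against 70.3%. No count was found for 1881 unnamed genes. Each library on its own held between 1757 and 1870 of them, and 1131 had a count in all 4 libraries. Among the genes with a count, the median deposited FPKM, a level corrected for gene length and depth, was 0.21 for the unnamed genes and 1.5 for the others.

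Detection was highest in the longest genes of both sets, and the unnamed genes were behind the others in every length class but the shortest. Below 300 bases, 48.2% of the 1256 unnamed genes and 36.3% of the 2703 other Ensembl genes had a count. From 300 to under 600 bases the shares were 57.2% and 64.9%, and from 600 to under 1200 bases they were 54.5% and 63.5%. In the shortest class the median length was 192 bases for the unnamed genes and 107 bases for the others. From 1200 to under 2400 bases 71.3% of the unnamed genes and 91.9% of the others had a count, and at 2400 bases or more the shares were 82.5% and 98.2%. In this longest class, 12975 of the other Ensembl genes but only 531 unnamed genes were found. These shares describe the annotation in the same 4 libraries and carry no test.

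**Figure D1:**
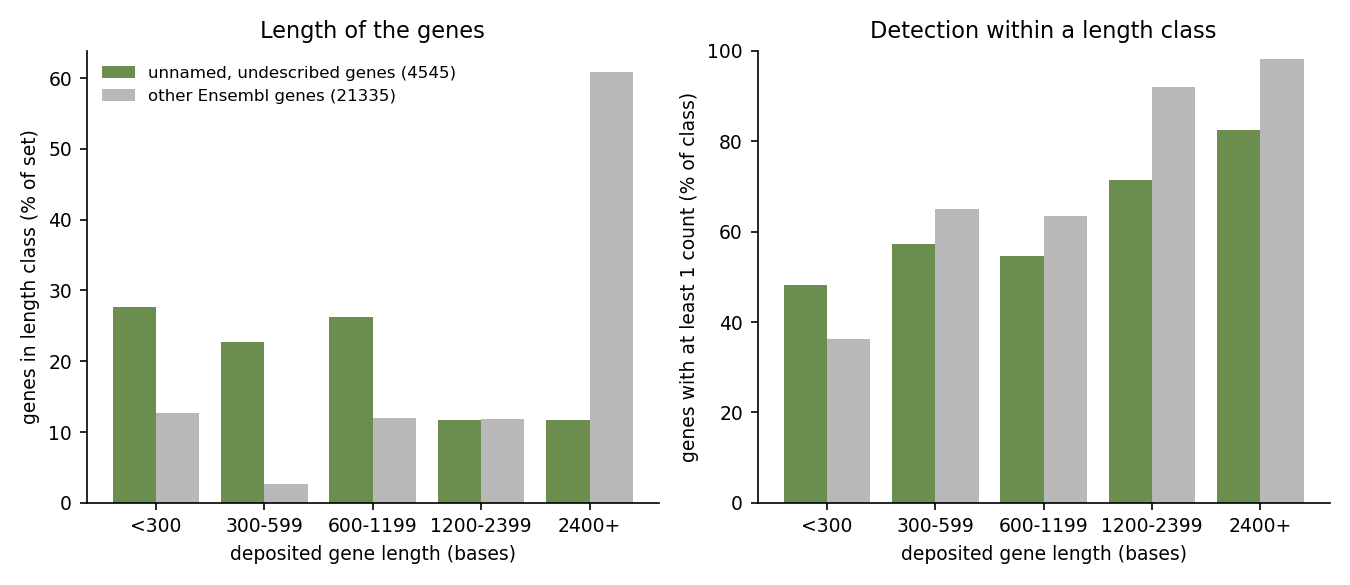
Left, the share of each set of genes in 5 classes of deposited length in bases, for the 4545 unnamed genes and the 21335 other Ensembl genes; right, the share of each class with at least 1 count in the 4 libraries together. The unnamed genes are concentrated below 1200 bases, and at 2400 bases or more 82.5% of them have a count against 98.2% of the others.

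The length column itself is not a simple transcript length. In 151 unnamed genes (3.32%) and 866 other Ensembl genes (4.06%) the length exceeds the genomic span of the gene. The length that can be worked back from a gene's count and its deposited FPKM differed from the column by more than 2% for 455 of the 2664 detected unnamed genes (17.1%) and for 9629 of the 18047 other detected Ensembl genes (53.4%). Where it differed, it was at the median 54.6% of the listed length in the unnamed genes and 50.6% in the others. With the length implied by the FPKM, the medians of the detected genes were 649.5 and 3464 bases, against 723 and 4940 bases with the listed length, so the unnamed genes were the shorter set on both measures.

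Many of the unnamed models have a listed length close to their genomic span. In 1321 of them (29.1%) the listed length covers at least 90% of the span and does not exceed it, against 23.5% of the other Ensembl genes. These models are called compact. A single-exon gene or a retrocopy has this form, but the listed length does not show that introns are absent. The compact ENSSSCG00000013042 has 9386 listed bases in a span of 10381, while its FPKM implies 4732. Compact models had a count in 47.6% of cases and the remaining unnamed genes in 63.1%. Within length classes the unnamed genes were the less often compact set below 1200 bases and the more often compact set above. Below 300 bases 39.3% of the unnamed genes and 98.6% of the other Ensembl genes were compact. From 300 to under 600 bases the shares were 27.7% and 50%, and from 600 to under 1200 bases 31.2% and 58.5%. From 1200 to under 2400 bases they were 13.7% and 8.71%, and at 2400 bases or more 18.3% and 2.63%.

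By position, 3630 unnamed genes lie on autosomes, 220 on X, 21 on Y, 24 on the mitochondrial genome and 650 on 229 unplaced scaffolds, sequences not yet assigned to a chromosome. Unplaced scaffolds hold 14.3% of the unnamed genes and 4.08% of the other Ensembl genes. Of the unnamed genes there, 34.9% had a count, against 51.8% of the other genes on unplaced scaffolds. The strands were nearly even, with 2192 on the plus and 2353 on the minus strand. Overlap was counted against the named or described Ensembl genes only: none was found for 2845, one on the same strand for 678 and one only on the opposite strand for 839, while 183 lie on scaffolds that hold no named or described Ensembl gene. A count was found for 59.4% of those without such an overlap, some of which overlap another unnamed gene, for 58.1% of those with one on the same strand and for 61.3% of those with one on the opposite strand. Smart-seq2 does not mark the strand, so reads in exon bases that overlapping genes share cannot be told apart. Overlap was taken on the spans of the genes, and their exons were not compared.

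The Y chromosome gives a level for reads in genes that a parthenogenetic embryo should lack. Of the 21 unnamed Y genes, 5 had a count, 37 counts in all, and 27 of these fell in ENSSSCG00000034853. The counts of all 21 together were 8 and 10 in the Bobcat339 libraries and 16 and 3 in the controls.

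Other annotation gives a name to some of these genes. The identifier table pairs 127 of them with a symbol, and 119 of these symbols stand on no other gene of the expression table. A RefSeq gene of Sscrofa11.1 that covers at least 50% of the model and is covered by it to at least 50% was found for 923. By their listed class these were 512 pseudogenes, 264 protein-coding genes, 110 long non-coding RNAs and 22 transfer RNAs. The rest were 7 V segments, 4 transcribed pseudogenes, 2 ribosomal RNAs and 2 constant regions. The class listed as long non-coding RNA includes matches under symbols of protein-coding genes, such as SWI5, B4GALT4 and ARHGAP19. With either source 1022 unnamed genes have a name elsewhere. The RefSeq table carries no strand, so a match rests on position alone. It covers the sequences of 3895 unnamed genes, so the 650 on unplaced scaffolds could not match.

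Detection differed between these classes, and so did length. The median length was 1818 bases with a symbol, 1776.5 for matches listed as long non-coding RNA and 915 for protein-coding genes. For pseudogenes it was 601, without a match 562.5 and for transfer RNAs 69 bases. The part of length in the shares below was not tested. Of the unnamed genes with a symbol in the identifier table, 90.6% had a count and 66.9% had at least 10 counts. Matches to RefSeq protein-coding genes had a count in 82.6% of cases and matches listed as long non-coding RNA in 85.5%. For matches to pseudogenes the share was 53.7%, and for the 3622 genes with no match it was 57.1%. The genes with no match include the 650 on unplaced scaffolds, which could not match and of which 34.9% had a count. Of the 22 matches to transfer RNAs 1 had a count, and of the 7 matches to V segments 2.

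Several well-known genes can be read from this table only under their identifier. ENSSSCG00000031912 is JUN, a component of the AP-1 transcription factor, and stood at 25.5 and 72.8 CPM with Bobcat339 and at 22.6 and 47.3 CPM in the controls. The second library of each group was the higher one, and the groups overlap. ENSSSCG00000000908 carries the symbol UBE2NL, of the ubiquitin-conjugating E2 enzymes, but no RefSeq gene matched it by position. It held 141 and 146 CPM against 127 and 132 CPM. ENSSSCG00000035611, MGAT2, an enzyme of N-glycan synthesis in the Golgi, held 40.1 and 36.6 CPM against 43.5 and 22.2 CPM. Control 2 was the low library of MGAT2, which overlaps RPL36AL on the opposite strand, so reads in any exon bases they share cannot be told apart.

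ENSSSCG00000011678 is XRN1, the cytoplasmic exonuclease that degrades decapped mRNA, and it varied little between the libraries, from 32.4 to 37.0 CPM. ENSSSCG00000028663 carries the symbol RBM25, a splicing regulator, in the identifier table, but no RefSeq gene matched it by position. It overlaps ENSSSCG00000039876 on the same strand. Its levels were 34.7 and 40.2 CPM with Bobcat339 against 49.6 and 44.3 CPM in the controls. Both Bobcat339 libraries of RBM25 lay below both controls, with an edgeR log2 fold change of -0.33 (SE 0.30) that did not pass the test. Of the 127 genes with a symbol, 63 could be tested, 33 with a fold change above 0 and 30 below, with a median log2 fold change of 0.05. At an unadjusted edgeR p under 0.05, 2 were higher and 1 was lower, where 1.36% of all rows tested were higher and 2.64% lower.

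A GO term was attached to 2453 unnamed genes, or 54.0%, against 82.3% of the other Ensembl genes, and none has a pathway name. The 2092 genes without a term were shorter, with a median of 432 bases against 711 bases, and were detected as often, 58.2% against 59.0%. A transcription factor family is given for 54 genes. The largest of these families, the zinc fingers of the C2H2 type, has 20 members, all with a count and 17 with at least 10. Of the 7 heat shock factor family members 2 had a count. The median lengths of these 2 families were 3420.5 and 1185 bases, and the part of length in this difference was not tested. C2H2 zinc fingers bind DNA and form the largest family of mammalian transcription factors.

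Terms for olfaction and for the ribosome made up much of the GO content. The olfaction genes were detected less often than all unnamed genes, and the ribosome genes only when at least 10 counts were asked for. Olfactory receptors are G protein-coupled receptors of the nose encoded by single coding exons in large clusters. Of the 467 unnamed genes with an olfaction term, 34.9% had a count and 8.99% had at least 10. The term for a structural constituent of the ribosome was held by 309 genes, of which 101 were compact and 89 matched a RefSeq pseudogene. Ribosomal protein genes are known to have many retrocopies. Of these 309, 56.6% had a count and 14.2% had at least 10, against 58.6% and 26.1% of all unnamed genes. Their median length was 375 bases, and of the unnamed genes from 300 to under 600 bases the shares were 57.2% and 24.2%. The filter on low counts, which keeps genes with about 10 counts or more in 2 libraries, was passed by 12 of the 309.

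Classes of enzymes and regulators were detected more often. A count was found for 69.1% of 249 genes in the DNA-binding and transcription class and 75.2% of 121 in the GTP and ATP binding class. In the kinase class a count was found for 76.5% of 51 genes, and in the cytoskeleton class for 79.5% of 112. The classes were built on words within terms, so they also take in genes with other functions. ENSSSCG00000031957 is in the GTP and ATP binding class through a term for GTPase binding. ENSSSCG00000002003 is in the kinase class through a term for I-kappaB kinase signalling. In the cytoskeleton class 82 genes remain when terms that hold only the words acting on are left out, of which 80.5% had a count. The other classes were not refined in this way. Immune terms marked 55 genes, 45.5% of them with a count, and receptor or G-protein terms 567 genes, 39.5% of them with a count. Reads from near-identical copies may be split or lost in the authors' counting, so the low values of olfactory receptor and ribosomal protein models are uncertain.

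**Figure D2:**
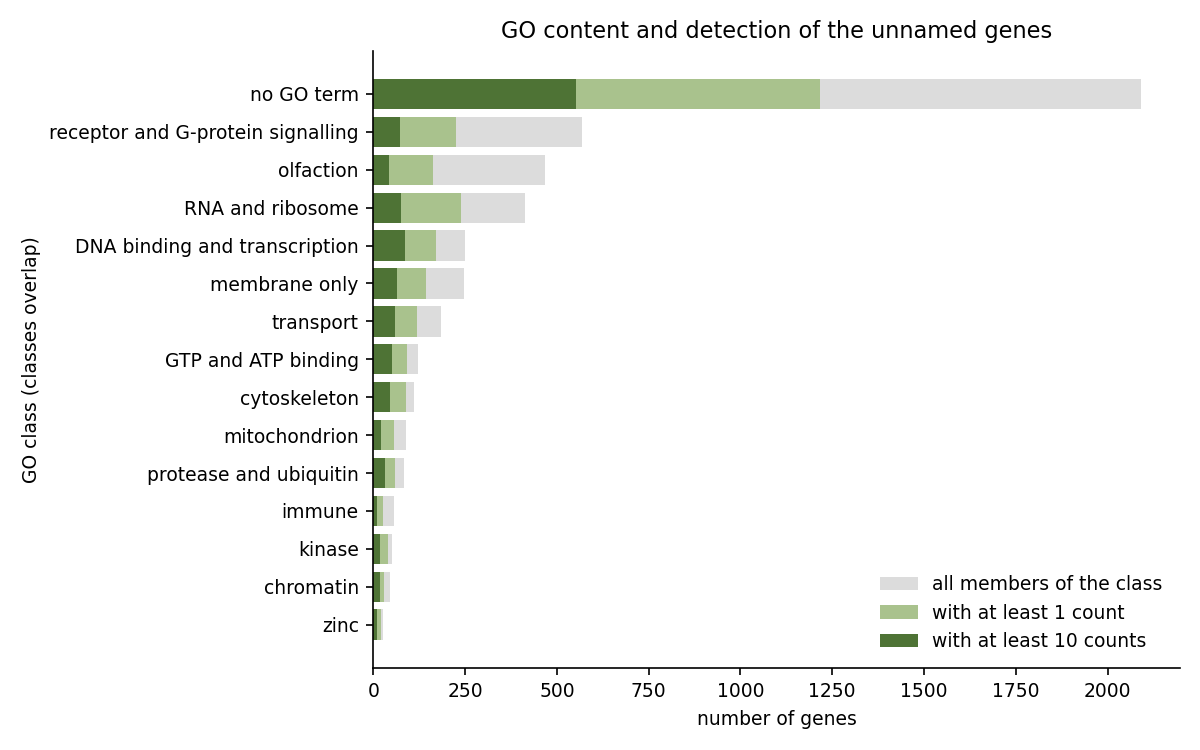
The number of unnamed genes in each of 14 GO classes and without a GO term (grey), with at least 1 count (light green) and with at least 10 counts (dark green) in the 4 libraries together; classes overlap. Of the 467 olfaction genes 8.99% reach 10 counts, against 41.3% of the 121 genes in the GTP and ATP binding class.

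The unnamed genes took up a small and nearly constant part of each library. They held 1.17% and 1.23% of the counts with Bobcat339 and 1.19% and 1.20% in the controls. The groups overlap, the difference of 0.006 percentage points was smaller than the SD within the Bobcat339 group (0.038, n = 2), and the exact two-sided permutation test gave p = 1, where the smallest p that 2 libraries against 2 allow is 0.333. A few genes carried most of it. The most abundant gene held 7.64% of the counts of all unnamed genes, the first 10 held 39.5%, the first 20 held 54.0% and the first 100 held 83.3%. A mean of at least 1 CPM was reached by 492 genes, of at least 10 CPM by 139 and of at least 100 CPM by 26.

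The most abundant gene was mitochondrial. ENSSSCG00000018063 (chrMT:2274-3844, plus strand, coordinates as in the table, which match Sscrofa11.1) coincides with the large ribosomal RNA of the mitochondrion in RefSeq. Its levels were 896 and 849 CPM with Bobcat339 and 874 and 1049 CPM in the controls, and control 2 was the highest library. ENSSSCG00000018061 (chrMT:1246-2205) coincides with the small ribosomal RNA and stood at 209 and 175 CPM with Bobcat339 and at 163 and 165 CPM in the controls, so that both treated libraries lay above both controls. The edgeR log2 fold changes, -0.14 (SE 0.23) and 0.22 (SE 0.26), differ in sign, and neither passed the test. Of the 22 unnamed mitochondrial genes that coincide with transfer RNAs, 1 had a count.

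A pair of neighbouring genes on chromosome 6 came next. ENSSSCG00000002969 (chr6:47797904-47805162, minus strand) and ENSSSCG00000002968 (chr6:47787570-47793873, minus strand) lie 4030 bases apart, have GO terms for the SCF ubiquitin ligase, a complex that recruits its substrates through F-box proteins, and the nearest named gene to the second is FBXO17, an F-box gene. ENSSSCG00000002969 stood at 797 and 810 CPM with Bobcat339 and at 862 and 581 CPM in the controls. ENSSSCG00000002968 stood at 746 and 751 CPM with Bobcat339 and at 756 and 552 CPM in the controls. In both genes control 1 was the highest library and control 2 the lowest. The log2 fold changes were 0.16 (SE 0.25) and 0.20 (SE 0.24). Per length their deposited FPKM averaged 872 and 752.

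ENSSSCG00000038552 (chr1:52942871-52945160, minus strand) carries the GO term RNA binding. It lies between KCNQ5, a potassium channel gene 3182 bases away, and DPPA5, 41301 bases away, which encodes an RNA-binding KH domain protein of oocytes and pluripotent cells. Its levels were 532 and 660 CPM with Bobcat339 and 639 and 493 CPM in the controls, in overlapping groups. Its mean of 581 CPM was above the 288 CPM of DPPA5 itself, a comparison of counts that is not corrected for length. ENSSSCG00000040677 (chr4:69940392-69974965, minus strand) has no GO term and overlaps the microRNA gene ssc-mir-124a-1 on the same strand. It stood at 415 and 400 CPM with Bobcat339 and 428 and 360 CPM in the controls, and control 2 was again the lowest library.

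Several abundant genes lie within or beside a gene that has a name. ENSSSCG00000031957 (chr4:32999618-33029524, minus strand) carries the symbol RIMS2, a presynaptic protein of regulated exocytosis, in the identifier table, but no RefSeq gene matched it by position. The next Ensembl gene on its right, 168899 bases away, is described as the same protein. On its left ENSSSCG00000039818 lies 32385 bases away. The levels of ENSSSCG00000031957 were 349 and 367 CPM with Bobcat339 and 274 and 367 CPM in the controls. ENSSSCG00000034072 (chr5:80521815-80531021, minus strand) has chaperone terms and lies 1746 bases from HSP90B1, the chaperone of the endoplasmic reticulum, within the RefSeq span of that gene. It stood at 174 and 173 CPM with Bobcat339 and at 153 and 162 CPM in the controls, while the row named HSP90B1 stood at 102 and 114 CPM against 128 and 103 CPM. The unnamed row thus held more counts, 9327, than the named one, 6284, and their log2 fold changes, 0.14 and -0.09, differ in sign, neither past the test.

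ENSSSCG00000033467 (chr13:146520166-146570708, plus strand) lies in the RefSeq span of CFAP44, a protein of the cilium and flagellum, and so does its unnamed neighbour ENSSSCG00000021271, whose symbol is CFAP44. The first stood at 249 and 225 CPM with Bobcat339 and at 215 and 264 CPM in the controls, and the second at 120 and 105 CPM against 100 and 102 CPM. ENSSSCG00000040857 (chr17:33086005-33094841) overlaps SNRPB, a core protein of the spliceosome, and ENSSSCG00000032239 (chr10:46926663-46936971) overlaps HSPA14, a ribosome-associated chaperone. The first was at 180 and 206 CPM with Bobcat339 and at 228 and 148 CPM in the controls. The second was at 159 and 153 CPM against 227 and 179 CPM, with both treated libraries below both controls and a log2 fold change of -0.38 (SE 0.26).

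A stretch of chromosome 6 holds genes related to PRAME, a family of leucine-rich repeat proteins expressed in germ cells, some tumours and early embryos. Beginning within chr6:72729978-72879303, a stretch chosen after the values were seen, the table has 10 Ensembl genes, 7 of them described as related to PRAME and 3 unnamed. ENSSSCG00000037632 stood at 236 and 296 CPM with Bobcat339 and at 307 and 401 CPM in the controls. ENSSSCG00000031836 stood at 222 and 179 CPM with Bobcat339 and at 376 and 195 CPM in the controls. The groups do not overlap in the first and overlap in the second, where control 1 is far above the other libraries. The log2 fold changes were -0.41 (SE 0.26) and -0.51 (SE 0.30). The third, ENSSSCG00000033129, averaged 37.0 CPM. Together the 3 held 33171 counts, against 77743 for the 7 described genes. These sets are not separate in position. The span of ENSSSCG00000037632 encloses the described genes ENSSSCG00000039417 and ENSSSCG00000040680 on its own strand and ENSSSCG00000032991 on the opposite strand. Whether reads were shared between them was not tested.

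ENSSSCG00000003988 (chr6:62082646-62100016, plus strand) is a C2H2 zinc finger gene that overlaps the RefSeq span of ZNF134. The Ensembl gene named ZNF134 lies 13687 bases away. ENSSSCG00000003988 was the most abundant with a transcription term, at 273 and 216 CPM with Bobcat339 and 345 and 185 CPM in the controls. ENSSSCG00000035520 (chrX:22068922-22069186, plus strand) is listed with 225 bases and a term for the mitochondrial inner membrane, and had the highest mean level per length of the genes with at least 5 CPM, an FPKM of 914. Its deposited FPKM was 841 and 670 with Bobcat339 and 815 and 1329 in the controls, so that control 2 was the high library. ENSSSCG00000014789 (chr9:5971366-5971953, minus strand) is compact, coincides with a RefSeq pseudogene and has terms for an RNA polymerase II phosphatase. Its deposited FPKM averaged 316, from 255 to 385, and the groups overlap.

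The other genes among the first 20 were ENSSSCG00000013607 (chr2:70621742-70623025), a compact model with mRNA-binding terms, ENSSSCG00000035711 (chr9:133527206-133559898), which lies 10059 bases from the microRNA gene ssc-mir-205, ENSSSCG00000037885 (chr18:7412134-7734307), which lies 13661 bases from TRBV30, a V segment of the T cell receptor beta locus, and ENSSSCG00000033464 (chr8:67304325-67305962), a compact model with terms for zinc binding and for a viral process. Their means ran from 139 to 183 CPM. The first of these was the one whose groups did not overlap, at 160 and 168 CPM with Bobcat339 and 201 and 204 CPM in the controls, with a log2 fold change of -0.31 (SE 0.26).

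**Figure D3:**
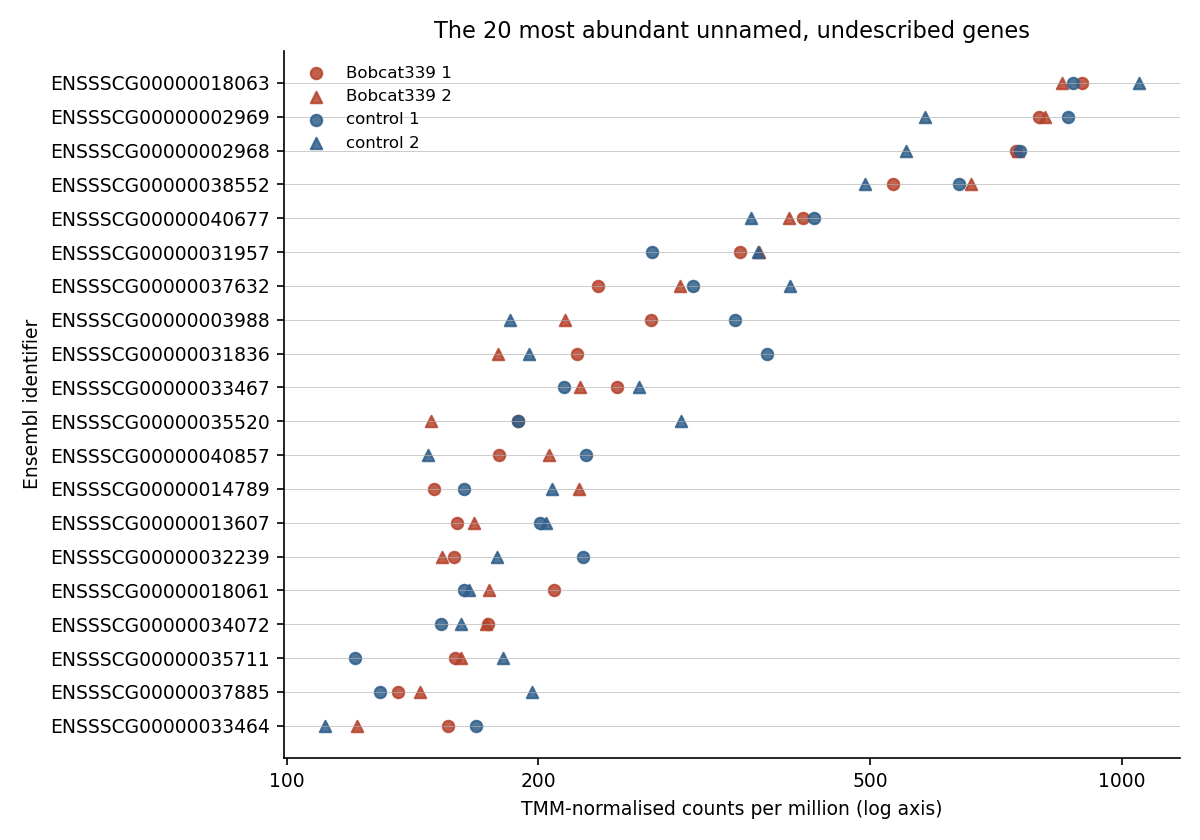
The TMM-normalised CPM (log axis) of the 20 most abundant unnamed genes in each library, with Bobcat339 in red and control in blue, and library 1 as circles and library 2 as triangles. Each point is 1 library; in most of the genes the 2 groups overlap, and the 2 controls often stand at opposite ends, as in ENSSSCG00000002969 at 862 and 581 CPM.

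The treatment comparison asked whether the unnamed genes differed between embryos with and without the TET inhibitor. No unnamed gene passed an adjusted p of 0.05 in edgeR's quasi-likelihood test, out of 619 that passed the filter on low counts, and the background was the same, with 0% of the 18481 rows tested called in either direction. The smallest adjusted p of an unnamed gene was 0.849. At an unadjusted edgeR p under 0.05 there were 7 higher genes (1.13%) and 13 lower genes (2.10%), against 1.36% and 2.64% of all rows tested. DESeq2 called no unnamed gene, with 5 higher and 7 lower at an unadjusted p under 0.05, where 0.0167% of all 30007 rows with a count were called higher and 0% lower, and 0.736% and 1.12% at the unadjusted p. The voom method of limma called none either, with 0% of all rows called, and gave 5 higher and 9 lower at an unadjusted p under 0.05, against 1.29% and 2.2% of all rows.

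The direction of the tested genes was even. A fold change above 0 was found for 301 and below 0 for 318, with a median log2 fold change of -0.01 and quartiles of -0.32 and 0.25. Over all rows tested 8700 were above and 9781 below 0, and the median was -0.02. Both Bobcat339 libraries lay above both controls in 80 unnamed genes (12.9%), against 13.3% of all rows tested, and below both in 113 (18.3%), against 16% of all rows. These shares are near the background. The 211 genes with a mean of at least 5 CPM had a median log2 fold change of 0.04, and the 408 with less had one of -0.04.

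**Figure D4:**
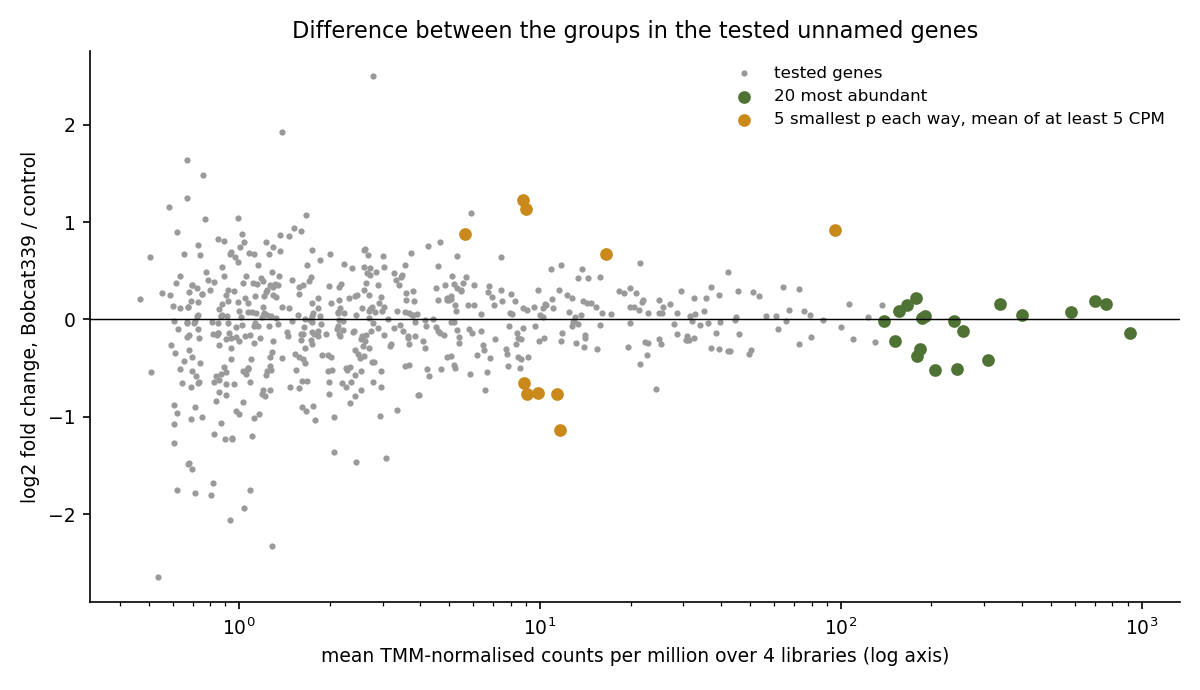
The log2 fold change of Bobcat339 against control, from edgeR, against the mean TMM-normalised CPM over the 4 libraries (log axis), for the 619 tested unnamed genes (grey), the 20 most abundant (green) and the 5 with the smallest p in each direction among those with at least 5 CPM and groups that do not overlap (orange). The points lie on both sides of 0, 301 above and 318 below, and the large fold changes belong to genes of low level.

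Differences between the groups were of the size of those within them or smaller. On the scale of log2(CPM + 0.5), the median absolute difference of the tested unnamed genes was 0.30 between the 2 Bobcat339 libraries, 0.46 between the 2 controls and 0.23 between the group means. A mean of 2 libraries varies less than a single library, so the last value is smaller in part by construction. A difference of over 2-fold was found in 5.49% of the genes between the Bobcat339 libraries, in 11.15% between the controls and in 1.94% between the group means. Among the 211 genes with at least 5 CPM the median differences were 0.20, 0.49 and 0.21 in the same order, so that the group means differed about as much as the Bobcat339 libraries.

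**Figure D5:**
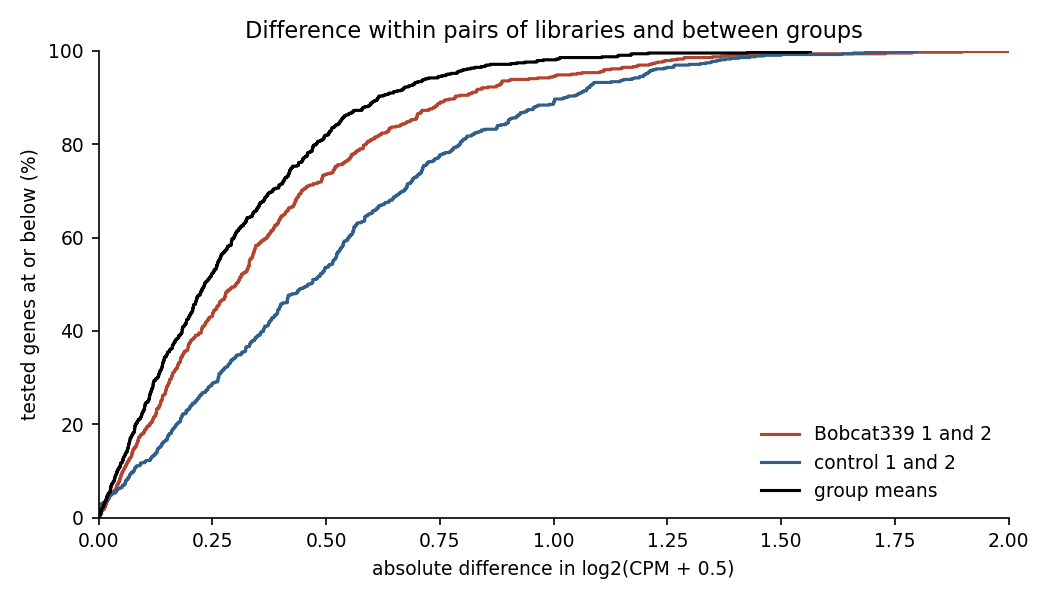
The cumulative share of the 619 tested unnamed genes (percent) at or below a given absolute difference in log2(CPM + 0.5), between Bobcat339 1 and 2 (red), between control 1 and 2 (blue) and between the 2 group means (black). The control pair lies furthest to the right, with a median of 0.46.

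No gene of any GO class passed the test. Above and below 0 stood 23 and 32 of 55 tested DNA-binding or transcription genes (median log2 fold change -0.07), 14 and 16 of 30 RNA and ribosome genes (-0.01), 18 and 15 of 33 GTP or ATP binding genes (0.04), 10 and 11 of 21 olfaction genes (-0.08) and 9 and 22 of 31 transport genes (-0.11). Of 15 protease and ubiquitin genes 10 were above and 5 below 0, and of 5 immune genes 4 were above and 1 below, with a median of 0.53. Of 9 genes with mitochondrial terms 1 was above and 8 were below 0, with a median of -0.53 and none at an unadjusted edgeR p under 0.05. These 9 are nuclear genes, and the 90 genes of the class held 0.023% and 0.019% of the counts with Bobcat339 and 0.024% and 0.033% in the controls, with control 2 the highest library. The 284 tested genes with no GO term split into 142 and 142.

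Among genes with at least 5 CPM and groups that do not overlap, the smallest unadjusted p of the higher genes belonged to ENSSSCG00000034584 (chr13:63318370-63318936, plus strand), a compact receptor-like model of 567 bases inside the RefSeq span of GRM7, a glutamate receptor gene. It stood at 8.79 and 15.9 CPM with Bobcat339 and at 5.88 and 5.37 CPM in the controls, and its log2 fold change was 1.13 (SE 0.39, 95% confidence interval 0.31 to 1.95, edgeR adjusted p = 0.999). ENSSSCG00000029160 (chr7:23915072-23929754, plus strand) carries the symbol HSP70.2 in the identifier table, while its RefSeq match by position is HSPA1L, which the expression table also lists as its neighbour 554 bases away. Both names are of chaperones of the HSP70 family, and the gene was the most abundant of these. It stood at 87.3 and 164 CPM with Bobcat339 and at 57.3 and 75.2 CPM in the controls. Bobcat339 2 was far above the other 3 libraries, and the log2 fold change was 0.92 (SE 0.32, 95% confidence interval 0.24 to 1.61, edgeR adjusted p = 0.999). HSP70 genes have near-identical copies in this region, so its counts are uncertain.

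ENSSSCG00000037223, a compact model on an unplaced scaffold with terms for transcription initiation, stood at 6.47 and 18.2 CPM with Bobcat339 and at 4.16 and 6.37 CPM in the controls, and again Bobcat339 2 was the library that stood apart. Its log2 fold change was 1.23 (SE 0.46). ENSSSCG00000010344 (chr14:84272928-84402948) carries the symbol NRG3, a growth factor of the neuregulin family, in the identifier table and overlaps RefSeq NRG3 in part. It stood at 8.79 and 5.83 CPM against 3.22 and 4.72 CPM. ENSSSCG00000040685 (chr12:14577665-14577765), a model of 101 bases inside the RNA helicase gene DDX5, stood at 15.1 and 25.8 CPM against 11.5 and 14.03 CPM. Reads in any bases that this small model shares with DDX5 exons on the same strand cannot be told apart, and exon positions were not compared.

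Of the lower genes, ENSSSCG00000002003 (chr7:75140205-75159495, minus strand) had the smallest unadjusted p. Its symbol in the identifier table is RNF31, a subunit of the LUBAC ubiquitin ligase complex that builds linear ubiquitin chains. Its GO terms include the LUBAC complex, but no RefSeq gene matched it by position. The gene overlaps PSME2, a proteasome activator gene, on the opposite strand. It stood at 8.52 and 6.12 CPM with Bobcat339 and at 22.6 and 9.52 CPM in the controls, so that control 1 lay far above the other 3 libraries. The log2 fold change was -1.13 (SE 0.41, 95% confidence interval -2.00 to -0.26, edgeR adjusted p = 0.999). ENSSSCG00000028861 (chr6:60403403-60412523, plus strand), in the RefSeq span of NLRP5, a maternal gene of the oocyte's subcortical complex, stood at 8.31 and 8.60 CPM with Bobcat339 and at 10.4 and 18.4 CPM in the controls. Here control 2 was the high library, with a log2 fold change of -0.77 (SE 0.37).

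The next lower genes included a pair from one region of chromosome 6 with terms for nucleic acid binding and regulation of transcription. ENSSSCG00000040433 (chr6:57353640-57378192) stood at 8.92 and 5.75 CPM with Bobcat339 and at 14.9 and 9.95 CPM in the controls. ENSSSCG00000037021 (chr6:57431193-57434631) stood at 7.02 and 6.34 CPM against 15.5 and 7.23 CPM, with control 1 again the high library. ENSSSCG00000035322 (chr7:97049222-97053580), listed with 234 bases, overlaps PNMA1 on the opposite strand. It stood at 7.08 and 6.70 CPM against 12.0 and 9.74 CPM. All 3 had an unadjusted edgeR p above 0.05.

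The remaining genes were named as the most abundant of their GO class or for their length, and their groups overlap. ENSSSCG00000008236 (chr3:59423083-59425282), in the RefSeq span of TGOLN2, a protein of the trans-Golgi network, ranged from 47.6 to 127 CPM, both extremes in the controls. ENSSSCG00000036400 (chr9:27092874-27095251), a RefSeq pseudogene between genes of the histone demethylase KDM4D, ranged from 28.1 to 46.9 CPM. ENSSSCG00000036821 (chr7:79644550-79645484), the most abundant olfactory receptor model, was at 29.6 and 31.2 CPM with Bobcat339 and 30.02 and 39.6 CPM in the controls, in a class of which 8.99% had at least 10 counts.

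ENSSSCG00000013610 (chr2:70282875-70295796), the most abundant with a G protein-coupled receptor term, ranged from 47.4 to 85.6 CPM, and ENSSSCG00000036737 (chr13:162713660-162821918), a kinase model in the span of EPHA6, an ephrin receptor gene, from 38.6 to 50.7 CPM. ENSSSCG00000031483 (chr10:13017419-13389475) is DNAH14, a dynein heavy chain of motile cilia, and ranged from 17.1 to 23.8 CPM. ENSSSCG00000001341 (chr7:23004251-23047651), an antigen presentation model in the MHC region, ranged from 12.9 to 23.2 CPM. ENSSSCG00000017783 (chr12:45332229-45396730) was the longest of the genes with at least 5 CPM and ranged from 10.25 to 15.7 CPM. Its symbol in the identifier table is MYO18A, an unconventional myosin, but no RefSeq gene matched it by position. In each of these 5 genes the log2 fold change lay between -0.02 and 0.32 and was smaller than its SE or nearly equal to it.

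The absence of a call depended on the control libraries. Without control 1, 11 unnamed genes were higher and 6 lower at an adjusted edgeR p of 0.05, against 2.03% and 0.887% of all rows tested. Without control 2, 4 were higher and 6 lower, against 0.74% and 1.73%. In these fits the lone control is assumed to vary as the 2 Bobcat339 libraries do. Of the genes described above, ENSSSCG00000013610, ENSSSCG00000028861, ENSSSCG00000034584, ENSSSCG00000035520 and ENSSSCG00000037632 passed without control 1, RNF31 (ENSSSCG00000002003), ENSSSCG00000031836, ENSSSCG00000037021 and ENSSSCG00000037223 passed without control 2, and HSP70.2 passed in both. ENSSSCG00000008236, MCM9 (ENSSSCG00000004246) and ENSSSCG00000033129 were also called without control 1, the first with a log2 fold change of 0.86 against -0.01 with all libraries. Of the 17 and 10 genes called, 2 were shared, HSP70.2 (ENSSSCG00000029160) and ENSSSCG00000029791, a gene of low level at 1.23 and 8.23 CPM with Bobcat339 and 0.717 and 0.931 CPM in the controls.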

How the data were processed

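RNA of porcine parthenogenetic 4-cell embryos was measured in 2 Bobcat339 and 2 control libraries, grouped by the treatment label. For each gene the table deposited by the authors holds raw counts and FPKM values, per the file headers. Per the submitters' processing notes, the tools included HTSeq, HISAT2 2.0.5, Trimmomatic and DESeq2 1.16.1 and the build was Sscrofa10.2, but 98.8% of 14155 comparable symbols in the table overlap their Sscrofa11.1 gene, so coordinates are named Sscrofa11.1. Whether the counting used strand is not stated in the labels.

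The counts of all rows were fitted with edgeR 4.0.16 (R 4.3.3; filterByExpr at its minimum of 10 counts, TMM, quasi-likelihood test, Benjamini-Hochberg adjustment over 18481 rows at 0.05), after the code was tested on simulated data. DESeq2 1.42.0 and limma 3.58.1 (voom) were alternatives. CPM values are TMM-normalised. The biological coefficient of variation was 26.4%. Unnamed genes were compared with the other Ensembl genes as descriptions, with no test. Named are the 20 most abundant, the 5 with the highest FPKM, those past the threshold or else the 5 smallest p in each direction with at least 5 CPM and groups that do not overlap, the most abundant of each of 14 GO classes, and the longest and the shortest; genes with a symbol elsewhere, the PRAME stretch and the genes of leave-one-out fits were added after values were seen. The genes and lists were chosen with earlier results of these data known.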

Additional observations from a re-analysis of the deposited data

How the results depend on the processing

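No unnamed gene was called by DESeq2, limma-voom, DESeq2 size factors, no scaling, either other filter on low counts, the fits without XLOC or without mitochondrial rows, a threshold of 0.01, or without either Bobcat339 library. Leaving out each library in turn gave 0 to 11 higher and 0 to 6 lower genes, with calls only without a control. The median log2 fold change of -0.01 ran from -0.077 to 0.067 with each library left out and was 0.028 without mitochondrial rows, a choice made after seeing the data. With the replicate number as a block, 0 unnamed genes were called (44 rows in all, smallest adjusted p of an unnamed gene 0.059) and the median was -0.00415; the same-numbered libraries correlated at 0.159 over only 2 pairs, so the pairing is not established. The share difference of 0.006 percentage points became -0.0070 over a total without mitochondrial rows and ran from -0.021 to 0.033 with each library left out. By FPKM, 12 of the 20 most abundant genes stayed in the first 20. The share detected was 26.1% at 10 counts, and the median length was 711 bases with a GO term, against 591 over all unnamed genes. For detected genes alone it was 649.5 bases as implied by the FPKM, a measure added after seeing the data, against 723 bases as listed.

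Between methods and sets of rows, named genes near 0 changed sign. With a library left out, genes further from 0 changed sign too, such as ENSSSCG00000031836, at -0.51 with all libraries. ENSSSCG00000008236 had a log2 fold change of 0.017 with DESeq2 and with its size factors, 0.153 with limma-voom, 0.026 without scaling or without a filter, 0.148 with the block, 0.025 without XLOC and 0.039 without mitochondrial rows. ENSSSCG00000033464 had 0.014 with DESeq2 and with its size factors, 0.0080 with limma-voom, 0.016 without scaling, 0.023 without a filter, 0.0065 with the block, 0.013 without XLOC and 0.032 without mitochondrial rows. ENSSSCG00000033467 had 0.0066 with DESeq2 and its size factors, 0.0031 without scaling, 0.012 without a filter and 0.021 without mitochondrial rows. ENSSSCG00000017783 had 0.0023 with DESeq2, 0.0024 with its size factors, 0.0089 without a filter and 0.015 without mitochondrial rows. ENSSSCG00000014789 had -0.0089 with limma-voom and -0.0068 with the block. With each library left out, the log2 fold change ran from -0.071 to 0.47 in ENSSSCG00000002969, -0.46 to 0.40 in ENSSSCG00000003988, -0.52 to 0.86 in ENSSSCG00000008236, -0.26 to 0.26 in ENSSSCG00000014789, -0.30 to 0.35 in ENSSSCG00000017783, -0.27 to 0.028 in ENSSSCG00000018063. It ran from -0.037 to 0.47 in ENSSSCG00000031483, -0.87 to 0.042 in ENSSSCG00000031836, -0.034 to 0.42 in ENSSSCG00000031957, -0.25 to 0.32 in ENSSSCG00000033464, -0.16 to 0.17 in ENSSSCG00000033467, -0.18 to 0.44 in ENSSSCG00000035711. Lastly, the range was -0.16 to 0.26 in ENSSSCG00000036737, -0.38 to 0.048 in ENSSSCG00000036821, -0.49 to 0.14 in ENSSSCG00000037885, -0.073 to 0.27 in ENSSSCG00000038552, -0.041 to 0.18 in ENSSSCG00000040677, -0.22 to 0.39 in ENSSSCG00000040857. The causes were not tested. At this depth 1881 unnamed genes had no count, and 3 counts in a library equal 0.204 to 0.221 CPM.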
